A study of Mus musculus with 8 samples.

Results

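The transcription factor p53, encoded by Trp53, and 9 genes that it is known to activate were followed in bone marrow B cells treated with estrogen or vehicle. The 10 genes were taken by symbol from a table of 46983 genes: Trp53, Cdkn1a, Mdm2, Ccng1, Phlda3, Trp53inp1, Zmat3, Eda2r, Fas and Gadd45a. The rule takes them by name and not by their values, although earlier results of these data were known when it was set. All 10 were found in the table, and 9 had enough reads to be tested, the exception being Eda2r. No difference between Estrogen and Vehicle was called for any of these genes, and the 95% interval of each of the 9 tested genes lay within a 2-fold change. Of all 15175 genes tested, 0 were called, and 75.7% had an interval within a 2-fold change.

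The cells were B cells of genotype WT, isolated magnetically from mouse bone marrow, and every sample of both groups carried the stress label Hypoxia, so there was no normoxic sample among them. They fell into 4 samples treated with Vehicle and 4 treated with Estrogen, with 1 RNA library each, numbered 1 to 4 within a group as in the labels. According to the study's methods, B cells were purified with antibody-coated magnetic beads and kept in culture at low oxygen. The age, sex and number of the mice used for these libraries are not given, and nothing states that the 4 libraries of a group were biologically separate. The p-values therefore cover the spread among the libraries sequenced, whether biological or technical.

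In unstressed cells p53 protein is kept low, because Mdm2, itself a target of p53, marks it for degradation. DNA damage, oncogene activity, ribosomal stress and, in some settings, low oxygen stabilise the protein, which then binds pairs of 10-base elements in the DNA and activates genes for cell cycle arrest, DNA repair and cell death. Developing B cells in the bone marrow make programmed DNA breaks while they rearrange their immunoglobulin genes, and p53 is known for removing cells whose breaks are not repaired. Because p53 is controlled mainly as a protein, its activity is usually read from the messenger RNA of its targets rather than from that of Trp53. The comparison of Estrogen with Vehicle asks whether that readout differed when estrogen was added under hypoxia.

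The DNA that p53 recognises is shown for the members whose windows hold it. RefSeq promoter sequences on GRCm38.p6, from 250 bases before to 50 bases after an annotated start, were given for 8 of the 10 genes, the others being Trp53inp1 and Zmat3. A pair of p53 consensus elements was searched with a spacer of at most 1 base and at most 2 mismatches, the fixed C and G of each element being kept. The element is its own reverse complement, so that 1 strand covers both. Such a pair lay in the windows of 2 of the 8 genes, Cdkn1a and Ccng1, and in those of 218 of 27025 genes (0.807%). The site of Cdkn1a, at chr17:29090928-29090947 on the plus strand, began 51 bases before the first of the annotated starts and carried 1 mismatch, while the window of another start of Cdkn1a (chr17:29093519-29093818) held no pair and no single element. The site of Ccng1, at chr11:40755462-40755481 on the minus strand, began 195 bases before the start and also carried 1 mismatch.
Cdkn1a site: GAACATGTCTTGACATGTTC
Ccng1 site: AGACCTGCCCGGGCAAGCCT
Each site lies upstream of its gene as GENCODE annotates it. The stretches from 250 to 31 bases before the start are given with the site in capitals, for Cdkn1a at chr17:29090729-29090948 (plus strand) and for Ccng1 at chr11:40755317-40755536 (minus strand).
Cdkn1a upstream: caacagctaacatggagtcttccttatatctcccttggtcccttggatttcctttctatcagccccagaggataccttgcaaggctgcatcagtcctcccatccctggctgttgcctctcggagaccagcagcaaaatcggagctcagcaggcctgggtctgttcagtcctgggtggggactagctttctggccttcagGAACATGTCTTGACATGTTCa
Ccng1 upstream: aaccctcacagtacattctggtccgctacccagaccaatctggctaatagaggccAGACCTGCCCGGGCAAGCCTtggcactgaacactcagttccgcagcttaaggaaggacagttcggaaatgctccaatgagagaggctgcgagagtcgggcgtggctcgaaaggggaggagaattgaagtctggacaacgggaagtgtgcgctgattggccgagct

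A single p53 element with no mismatch was found in the windows of 5 of the 8 genes and of 2582 of 27025 genes (9.55%), and so is common by itself. The site pairs of Ccng1 and Cdkn1a above each contain such an element. Outside them it was present upstream of Trp53 (chr11:69580274-69580303, plus strand), of Cdkn1a (chr17:29090896-29090925, plus strand), of Mdm2 (chr10:117710925-117710954, minus strand) and of Gadd45a (chr6:67037428-67037457, minus strand). They are given with 10 bases to either side and the element in capitals. The stretch of Gadd45a lies within the gene as GENCODE annotates it, and the other 3 lie before it.
Trp53 element: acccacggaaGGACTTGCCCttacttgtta
Cdkn1a element: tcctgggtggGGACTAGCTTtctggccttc
Mdm2 element: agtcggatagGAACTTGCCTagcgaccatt
Gadd45a element: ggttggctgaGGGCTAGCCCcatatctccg
The palindromic estrogen response element GGTCANNNTGACC, searched on both strands, lay in none of the windows of the 8 genes and in those of 20 of 27025 genes (0.074%). No binding was measured in these libraries, and a match or its absence in a window of this length is a description of the letters only.

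The libraries held between 30181834 and 39088597 reads in genes. Values are given as scaled CPM (reads per 1000000 after TMM scaling of the library), and the detection floor of 3 reads equals 0.0780 to 0.102 CPM. The floor covers counting error only. Among all 15175 genes tested, edgeR's quasi-likelihood test with Benjamini-Hochberg adjustment called 0 genes higher and 0 lower at an adjusted p of 0.05, with a smallest adjusted p of 0.452, while 535 genes (3.53%) had an unadjusted p under 0.05. DESeq2 and limma-voom with sample weights each called 1 gene, which was none of the members. Markers of the B lineage were abundant in every library, with 7 markers summing to 5919 to 10543 CPM in Vehicle and 4844 to 9044 CPM in Estrogen. Other marrow cells also left RNA in all libraries: the 8 neutrophil markers summed to 3131 to 8734 CPM in Vehicle and 3196 to 9191 CPM in Estrogen, and the 8 monocyte and macrophage markers to 2959 to 3669 and 2952 to 4802 CPM. The 7 markers of plasmacytoid dendritic cells summed to 1717 to 2361 CPM in Vehicle and 1998 to 3164 CPM in Estrogen, with 5 of them higher in Estrogen, a list median of 0.30 on the log2 scale and none called. Among these Siglech, a surface receptor, was at 655 ± 189 and 1033 ± 319 CPM (edgeR unadjusted p = 0.0274, adjusted 0.860). Bst2 and Klk1 of the same list were lower in Estrogen (log2 difference −0.11 and −0.18). An unadjusted edgeR p under 0.05 was found for 4 of the 8 monocyte and macrophage markers, with Cd68, C1qa and Mpeg1 higher and Ly6c2 lower. It was also found for 1 marker each of the T and NK cell and plasma cell lists, Thy1 (lower) and Prdm1 (higher). No marker of these lists was at 0 in all libraries. Vehicle 3 stood apart in sex-linked genes, with 3540 reads of the Y-linked Ddx3y against 20 in Estrogen 3, the next highest library, and with Xist at 2.39 CPM, whereas the other 7 libraries held 470.2 to 1441 CPM. Its neutrophil marker sum was also the highest of Vehicle, at 8734 CPM against 4263, 4207 and 3131 CPM in Vehicle 1, 2 and 4. In Estrogen 1 to 4 that sum was 3795, 9191, 7695 and 3196 CPM. Whether any member goes with the neutrophil sum was not tested. Member values that turn in sign or move by more than 1.5 times without Vehicle 3 are given with and without that library.

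The members differed widely in level. Per kilobase of annotated exon, Trp53inp1 was the most abundant at 86.0 CPM (mean of 8 libraries), followed by Trp53 at 39.7, Ccng1 at 31.8, Mdm2 at 26.6, Gadd45a at 8.76, Cdkn1a at 6.41, Fas at 3.75, Phlda3 at 1.06, Zmat3 at 0.744 and Eda2r at 0.025 CPM per kilobase. Neighbours in this order overlapped in their ranges over the libraries in 4 pairs: Trp53 with Ccng1, Gadd45a with Cdkn1a, Cdkn1a with Fas, and Phlda3 with Zmat3. In the other 5 pairs the ranges were apart. The sensor and its feedback inhibitor were thus well above Cdkn1a, the usual readout of p53 activity.

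**Figure D1:**
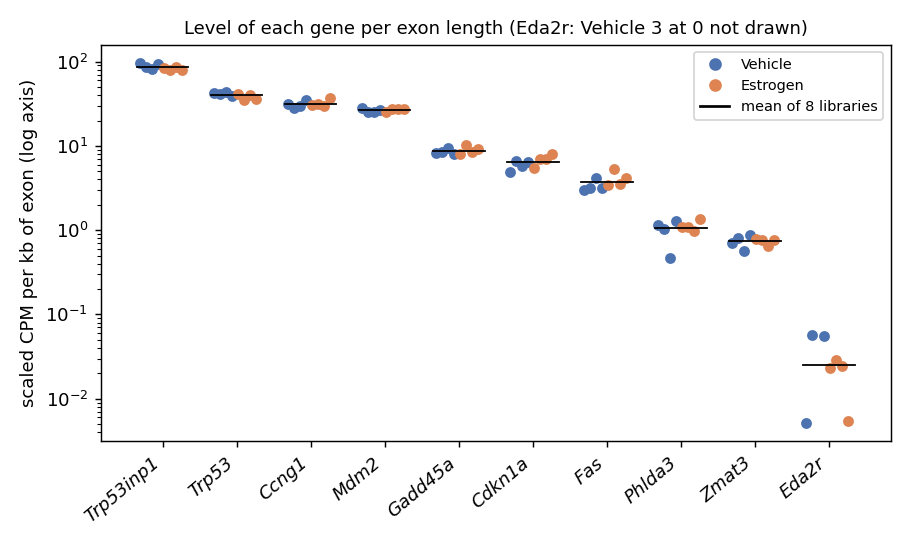
Level of each member in CPM per kilobase of exon on a log axis, with 1 point per library coloured by group and a line at the mean of 8 libraries. Trp53inp1 is highest at 79.5 to 97.2 and Eda2r lowest, and its 0 in Vehicle 3 cannot be drawn on this axis.

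Trp53 itself (ENSMUSG00000059552, GRCm38 chromosome 11, 69580359 to 69591873, plus strand) was expressed at 171.1, 168.2, 174.4 and 156.5 CPM in Vehicle 1 to 4. In Estrogen 1 to 4 it was at 167.1, 140.8, 161.9 and 144.6 CPM. Estrogen 2 and Estrogen 4 were below every Vehicle library, while Estrogen 1 and Estrogen 3 were inside the range of Vehicle. The means were 168 ± 7.79 and 154 ± 12.9 CPM (SD, n = 4 each), a log2 difference of −0.13 ± 0.086 (SE, 95% interval −0.32 to 0.068), which did not pass the test (edgeR adjusted p = 0.860, exact two-sided permutation p = 0.143). With 4 against 4 libraries the smallest exact p is 0.0286. Trp53 shares 3.95% of the 50-base windows of its transcripts with other genes, mainly the pseudogene Trp53-ps, which was counted at 0 reads in all libraries.

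Mdm2 (ENSMUSG00000020184, chromosome 10, 117688875 to 117710758, minus strand), the ubiquitin ligase that p53 induces and that in turn degrades p53, was the steadiest member relative to its level over the 8 libraries. Its level was 143.9, 127.8, 129.5 and 137.1 CPM in Vehicle 1 to 4 and 128.1, 137.7, 138.4 and 139.8 CPM in Estrogen 1 to 4. The groups covered nearly the same range, and the means were 135 ± 7.42 and 136 ± 5.32 CPM. The log2 difference was 0.016 ± 0.076 with a 95% interval of −0.15 to 0.19 (edgeR adjusted p = 0.958, exact permutation p = 0.771), so that a change beyond about 1.14-fold upwards lay outside the interval. Without Vehicle 3 it was 0.010. The coefficient of variation within the groups was 5.51% in Vehicle and 3.91% in Estrogen, against 1.48% from counting alone.

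Among the members that act in cell cycle arrest, Cdkn1a encodes p21, the inhibitor of cyclin-dependent kinases through which p53 halts division. Cdkn1a (ENSMUSG00000023067, chromosome 17, 29090976 to 29100727, plus strand) was at 17.4, 23.7, 20.7 and 22.8 CPM in Vehicle 1 to 4 and at 19.4, 24.9, 24.7 and 28.6 CPM in Estrogen 1 to 4. Estrogen 2, Estrogen 3 and Estrogen 4 were above every Vehicle library, and Estrogen 1 was below 3 of the 4 Vehicle libraries. The means of 21.1 ± 2.81 and 24.4 ± 3.79 CPM gave a log2 difference of 0.21 ± 0.15 (95% interval −0.12 to 0.54), which did not pass the test (edgeR adjusted p = 0.860, exact permutation p = 0.229). The interval runs from 0.921-fold to 1.45-fold of Vehicle. With 1 library left out the log2 difference ran from 0.13 without Estrogen 4 to 0.30 without Estrogen 1, at exact permutation p-values of 0.457 and 0.0571. Of the 50-base windows of its transcripts, 8.49% also occur in other genes, mainly AC167363.2, which is annotated on the opposite strand and was not among the counted genes. It is not stated whether reads were counted by strand.

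Ccng1 (ENSMUSG00000020326, chromosome 11, 40748552 to 40755311, minus strand) encodes cyclin G1, which recruits a phosphatase to Mdm2. It was at 108.9, 99.6, 105.2 and 123.5 CPM in Vehicle 1 to 4 and at 108.6, 110.9, 105.3 and 131.2 CPM in Estrogen 1 to 4. Replicate 4 was the highest in each group, and the other libraries overlapped. The log2 difference was 0.061 ± 0.10 (95% interval −0.17 to 0.29, edgeR adjusted p = 0.889, exact permutation p = 0.543) between means of 109 ± 10.2 and 114 ± 11.7 CPM. Without Estrogen 4 it was −0.0090.

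Gadd45a (ENSMUSG00000036390, chromosome 6, 67035096 to 67037457, minus strand), a stress protein that acts in growth arrest and DNA repair, was at 14.7, 14.9, 16.8 and 14.1 CPM in Vehicle 1 to 4 and at 14.3, 18.1, 14.8 and 16.1 CPM in Estrogen 1 to 4. The means of 15.1 ± 1.17 and 15.8 ± 1.72 CPM differed by 0.068 ± 0.12 on the log2 scale (95% interval −0.20 to 0.34, edgeR adjusted p = 0.896, exact permutation p = 0.543). The groups overlapped, and without Estrogen 2, the highest library, the difference was −0.0016, and without Vehicle 3 it was 0.14. Gadd45a overlaps E230016M11Rik on the opposite strand over 19.1% of its exon length. Their reads can be told apart there only if they were counted by strand, which is not stated. E230016M11Rik had 18 to 49 reads per library.

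**Figure D2:**
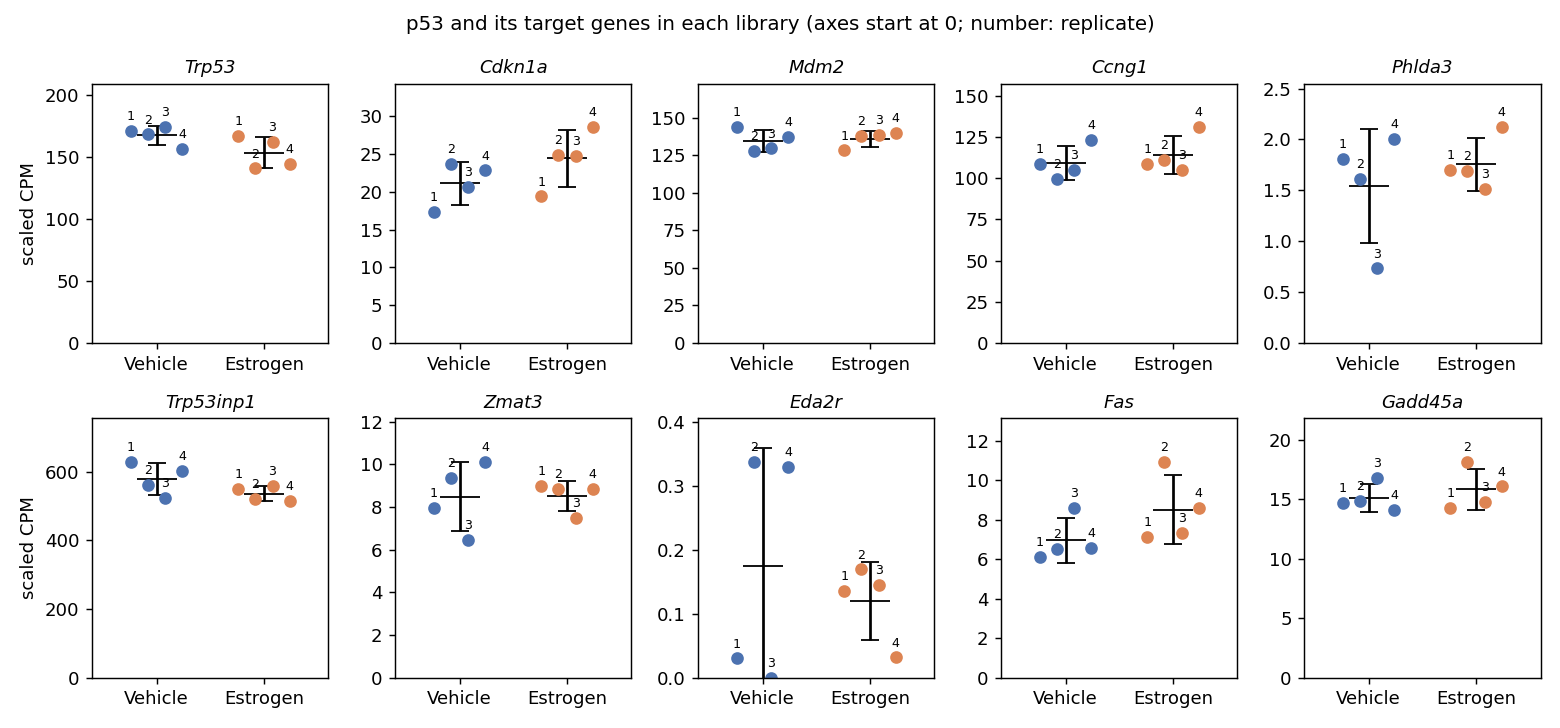
Scaled CPM of each of the 10 members in every library, Vehicle beside Estrogen, with 1 panel per gene, points for libraries and bars for the group mean and SD (n = 4). The groups overlap in every panel. Within their groups, Vehicle 3 lies low in Phlda3 (0.732 CPM) and Estrogen 3 in Zmat3 (7.49 CPM), where Vehicle 3 is lower still (6.44 CPM).

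The other 5 members act mainly in cell death and stress responses. Fas (ENSMUSG00000024778, chromosome 19, 34290666 to 34327772, plus strand), the death receptor by which T cells delete activated B cells, was at 6.11, 6.52, 8.61 and 6.56 CPM in Vehicle 1 to 4 and at 7.14, 10.9, 7.35 and 8.59 CPM in Estrogen 1 to 4. Every Estrogen library was above Vehicle 1, 2 and 4, and Vehicle 3 lay above 3 of the 4 Estrogen libraries. The means were 6.95 ± 1.12 and 8.51 ± 1.75 CPM, and the log2 difference of 0.29 ± 0.19 (95% interval −0.13 to 0.71) was the largest of the 9 tested members but did not pass the test (edgeR adjusted p = 0.860, exact permutation p = 0.20). Without Vehicle 3, Vehicle was at 6.40 ± 0.251 CPM (n = 3) and the log2 difference was 0.43. The tests still did not call it (edgeR adjusted p = 0.968, exact permutation p = 0.0857). Without Estrogen 2 the log2 difference was 0.15.

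Phlda3 (ENSMUSG00000041801, chromosome 1, 135766119 to 135769136, plus strand) encodes a small membrane-binding protein that restrains the survival kinase Akt. It had 60, 62, 26 and 67 reads in Vehicle 1 to 4 and 50, 60, 52 and 67 reads in Estrogen 1 to 4, or 1.81, 1.61, 0.732 and 2.01 CPM and 1.70, 1.69, 1.51 and 2.12 CPM. Vehicle 3 was below all other libraries, which lay close together. The log2 difference of 0.19 ± 0.31 (95% interval −0.52 to 0.90, edgeR adjusted p = 0.888, exact permutation p = 0.686) turned to −0.029 without Vehicle 3, when the mean of Vehicle was 1.81 ± 0.198 CPM (n = 3). At this depth the libraries varied by 36.5% in Vehicle and by 14.8% in Estrogen. Counting alone gives 13.8% as the mean over the 8 libraries.

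Trp53inp1 (ENSMUSG00000028211, chromosome 4, 11156431 to 11174379, plus strand) encodes a stress protein that acts in p53-driven cell death and in autophagy. The gene was at 629.2, 560.7, 523.5 and 601.1 CPM in Vehicle 1 to 4 and at 549.0, 519.7, 559.4 and 514.8 CPM in Estrogen 1 to 4. Vehicle 3 was inside the range of Estrogen, and the other Vehicle libraries were above all Estrogen libraries. The means of 579 ± 46.3 and 536 ± 21.8 CPM differed by −0.11 ± 0.097 on the log2 scale (95% interval −0.33 to 0.11), which did not pass the test (edgeR adjusted p = 0.860, exact permutation p = 0.114). Without Vehicle 3 the log2 difference was −0.14, at an edgeR adjusted p of 0.968. The exact permutation p was then 0.0286, the smallest that 3 against 4 libraries can give. Without Vehicle 1 the log2 difference was −0.051 (exact permutation p = 0.286).

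Zmat3 (ENSMUSG00000027663, chromosome 3, 32334792 to 32366014, minus strand), which encodes an RNA-binding zinc finger protein that acts in splicing, was at 7.98, 9.36, 6.44 and 10.1 CPM in Vehicle 1 to 4 and at 8.98, 8.83, 7.49 and 8.84 CPM in Estrogen 1 to 4. The group means of 8.48 ± 1.62 and 8.54 ± 0.699 CPM were nearly the same. The log2 difference was 0.0096 ± 0.17 (95% interval −0.37 to 0.38, edgeR adjusted p = 0.989, exact permutation p = 0.914), and −0.087 without Vehicle 3.

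Eda2r (ENSMUSG00000034457, chromosome X, 97333840 to 97377216, minus strand), a receptor for ectodysplasin A2, was at the limit of detection. It had 1, 13, 0 and 11 reads in Vehicle 1 to 4 and 4, 6, 5 and 1 reads in Estrogen 1 to 4. The 0 reads of Vehicle 3 allow a level of up to 0.0844 CPM. Vehicle held both the highest and the lowest libraries, with means of 0.174 ± 0.184 and 0.121 ± 0.061 CPM, and no difference was detectable at this depth. The difference in mean log2 CPM was 0.0060, and −0.50 without Vehicle 3 (exact permutation p = 1 and 0.60).

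Taking the members as a list, 0 of 9 were called in either direction, beside 0% of all genes tested. None of the 9 had groups that did not overlap, against 1.67% of all genes, and none had an unadjusted p under 0.05, against 3.53%. The log2 difference was above 0 for 7 members and below 0 for Trp53 and Trp53inp1, with a median of 0.061, whereas 48.9% of all genes were above 0 and the median of all genes was −0.0054. With library totals in place of TMM both medians moved up, to 0.11 and 0.046. The count above 0 was 5 without Vehicle 3, without Estrogen 2 or without Estrogen 4, and the median of the members was then 0.010, 0.012 and 0.0068. The 95% interval lay within a 2-fold change in 9 of 9 members, against 75.7% of all genes, and within a 1.5-fold change in 7 of 9, against 51.5%. The exceptions were Phlda3 and Fas.

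**Figure D3:**
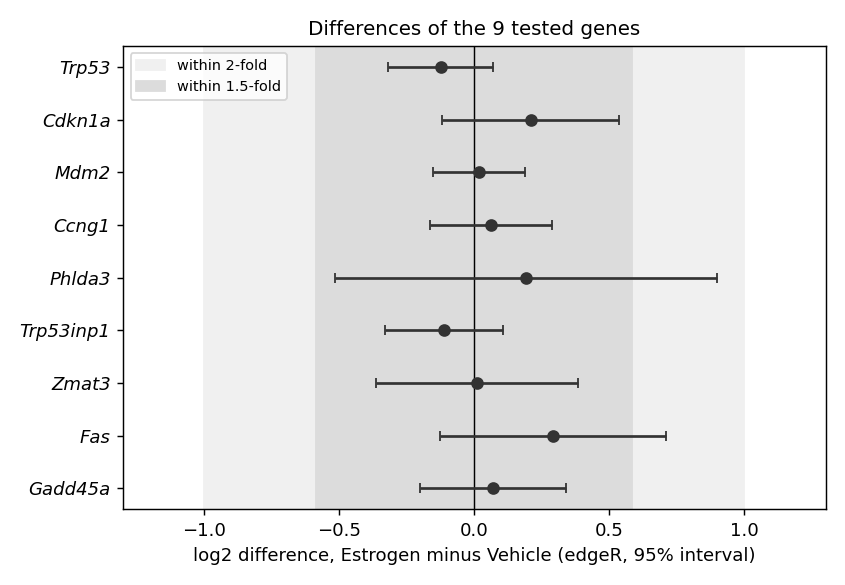
Log2 difference of Estrogen minus Vehicle for the 9 tested members, with points for fitted values and bars for 95% intervals. Every interval includes 0, and the widest is that of Phlda3, from −0.52 to 0.90.

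The members were also compared with each other. Cdkn1a was set against each of the other 9 genes over the 8 libraries, on log2 CPM, and none of these 9 relations passed the adjustment. The closest was that with Trp53, which was negative (Pearson r = −0.75, exact permutation p = 0.0348, adjusted 0.313, and Spearman rho = −0.76, exact permutation p = 0.0368, adjusted 0.331). Without Estrogen 4 and Vehicle 1, the libraries farthest from the median of Cdkn1a, r was −0.62. For the other 8 relations the adjusted exact p of Pearson's r was between 0.498 and 0.811, and r ran from −0.61 with Trp53inp1 to 0.51 with Fas. The relation with Mdm2 was r = 0.10, and 0.70 without the same libraries. These values moved with the scaling: with library totals r was −0.59 for Trp53 (exact permutation p = 0.121), 0.62 for Mdm2 and −0.14 for Trp53inp1, and again none of the 9 passed the adjustment (smallest adjusted p = 0.218).

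Trp53 and Cdkn1a moved in opposite directions with the level of B lineage markers, a relation that was examined after the values were seen. All 7 B lineage markers (Cd79a, Cd79b, Pax5, Ebf1, Ms4a1, Blnk and Cd22) had lower fitted levels in Estrogen (median −0.29 on the log2 scale), and none of them was called. Their sum was 10543, 8773, 8816 and 5919 CPM in Vehicle 1 to 4 and 9044, 4844, 7306 and 4929 CPM in Estrogen 1 to 4. The libraries with the lowest sums, Estrogen 2, Estrogen 4 and Vehicle 4, were also the 3 with the lowest Trp53. They were the 3 with the highest sum of plasmacytoid dendritic cell markers as well, at 2632, 3164 and 2361 CPM, and whether Trp53 or Cdkn1a go with those cells was not tested. Over the 8 libraries, Trp53 rose with the sum (Pearson r = 0.95, exact permutation p = 0.00045, adjusted over the 10 members 0.0045, and Spearman rho = 0.88, p = 0.0072, adjusted 0.036), and r was 0.88 without Estrogen 2 and Estrogen 4. Cdkn1a was lower where the sum was higher (r = −0.83, exact permutation p = 0.0102, adjusted 0.0508, and rho = −0.90, p = 0.0046, adjusted 0.036), with r = −0.71 without the same libraries.

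Such relations were frequent in these libraries, since 35.7% of all genes tested had an r beyond 0.8 in either direction with the same sum. The median absolute r of all genes tested was 0.70. An r above that of Trp53 was found for 3.54% of genes, and one below that of Cdkn1a for 12.9%. The other 8 members had adjusted exact p-values between 0.175 and 0.609 for Pearson's r. With each measure centred on its group mean, r was 0.94 for Trp53 and −0.78 for Cdkn1a (exact permutation within groups, p = 0.0087 and 0.0469, adjusted over the 10 members 0.0868 and 0.234), so that neither passed the adjustment within groups. With the B lineage sum as a covariate, the fitted log2 difference was −0.034 for Trp53 and 0.035 for Cdkn1a, against −0.13 and 0.21 without it. Other members moved too: Fas was then at 0.13 against 0.29, Phlda3 at 0.058 against 0.19 and Gadd45a at 0.0043 against 0.068. Zmat3 went from 0.0096 to −0.074, and 0 of 9 members were called. Fewer cells of a type and less RNA per cell cannot be told apart in such bulk samples. The part of B lineage content in the level of Trp53 or Cdkn1a was not tested beyond this.

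**Figure D4:**
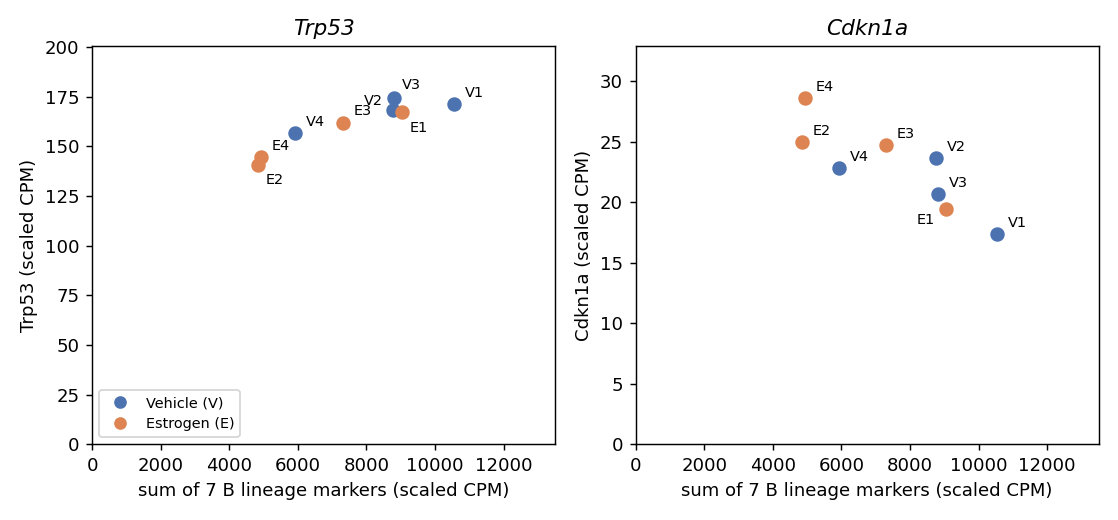
Scaled CPM of Trp53 (left) and Cdkn1a (right) against the summed scaled CPM of 7 B lineage markers, with 1 point per library (V, Vehicle and E, Estrogen, with the replicate number). Trp53 is lowest in Estrogen 2 and Estrogen 4 at the low end of the sum, where Cdkn1a is highest.

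The wider p53 pathway was described with 6 lists of genes that are not members, and 0 genes of these lists were called. Of the 16 upstream kinases, cofactors and regulators of p53, all tested, 9 had fitted values above 0 and 7 below, with a median of 0.0041. The genes with the smallest p among them were Rpl5, a ribosomal protein that binds Mdm2, at 1233 ± 175 CPM in Vehicle against 1093 ± 170 CPM in Estrogen, Trp53bp1, a DNA break adaptor, at 50.2 ± 14.4 and 56.8 ± 7.13 CPM, and Ep300, an acetyltransferase and p53 cofactor, at 177 ± 57.3 and 203 ± 27.9 CPM. Their groups overlapped, and Rpl5 is uncertain, since 48.9% of its windows recur in other genes. Of 12 family relatives of the members, 8 were tested, of which 3 were above 0 and 5 below. Gadd45b, a relative of Gadd45a, was at 48.8 ± 10.2 CPM in Vehicle against 37.9 ± 7.91 CPM in Estrogen (log2 difference −0.36 ± 0.19), whereas Trp53inp2, a relative of Trp53inp1, was at 52.6 ± 9.33 and 65.7 ± 11.7 CPM (log2 difference 0.32 ± 0.16). Cdkn1b, which encodes the kinase inhibitor p27, was at 282 ± 16.7 and 256 ± 11.7 CPM. Trp63 and Trp73, the relatives of Trp53 itself, had 37 and 4 reads over all libraries and were not tested.

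Of 10 other p53 targets that act in apoptosis, 9 were tested, with 6 above 0, 3 below and a median of 0.027. The nuclease gene Aen was at 46.1 ± 1.32 CPM in Vehicle against 41.9 ± 4.81 CPM in Estrogen, the death receptor gene Tnfrsf10b at 2.59 ± 0.529 and 3.25 ± 1.16 CPM, and the autophagy gene Dram1 at 9.03 ± 2.37 and 11.7 ± 5.95 CPM. Of 19 other targets in arrest, repair and metabolism, 18 were tested, with 10 above 0, 8 below and a median of 0.039. The one gene of all 6 lists with an unadjusted edgeR p under 0.05 was in this list: Gdf15, a secreted stress cytokine. Among all genes tested, 3.53% had such a p.

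Gdf15 was at 4.15, 8.24, 5.57 and 8.72 CPM in Vehicle 1 to 4 and at 7.45, 17.1, 8.68 and 24.1 CPM in Estrogen 1 to 4. Estrogen 2 and Estrogen 4 stood above the rest, and the other Estrogen libraries lay within the range of Vehicle. The means of 6.67 ± 2.18 and 14.4 ± 7.82 CPM gave a log2 difference of 1.10 ± 0.39 with an unadjusted p of 0.0192 by edgeR, which after adjustment was 0.860. Its 2 highest libraries were those with the lowest B lineage sum, and the part of that in the result was not tested. In the same list, Sesn2, a stress regulator of growth signalling, was at 25.2 ± 6.06 and 32.5 ± 9.58 CPM, and Btg2, which acts against proliferation, at 738 ± 161 and 593 ± 146 CPM.

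Of the 12 listed genes of the Fas death receptor pathway, 10 were tested, with 3 above 0, 7 below and a median of −0.12. The list also holds Eda, the ectodysplasin gene, which is not part of Fas signalling and was among the 7 below (−0.35). The Fas-binding protein gene Daxx was at 142 ± 28.0 CPM in Vehicle against 107 ± 24.7 CPM in Estrogen, and its log2 difference of −0.41 ± 0.19 did not pass the test (edgeR unadjusted p = 0.0559, adjusted 0.860). Faim, an inhibitor of Fas-driven death, was at 33.1 ± 6.46 and 27.7 ± 3.68 CPM, and Ripk1, a kinase of the receptor complex, at 31.8 ± 1.58 and 35.4 ± 3.43 CPM. The ligand gene Fasl had 12 reads over all libraries and was not tested. Of 18 proliferation genes that the p53 and p21 arm is known to lower, all were tested, with 11 above 0, 7 below and a median of 0.033. Foxm1, a transcription factor of mitotic genes, was at 32.4 ± 10.7 and 39.8 ± 9.16 CPM, the replication gene Mcm5 at 63.9 ± 12.8 and 55.3 ± 11.2 CPM, and the mitotic kinase gene Aurkb at 27.0 ± 0.802 and 25.5 ± 2.68 CPM. The smallest adjusted p in any of the lists was 0.860.

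**Figure D5:**
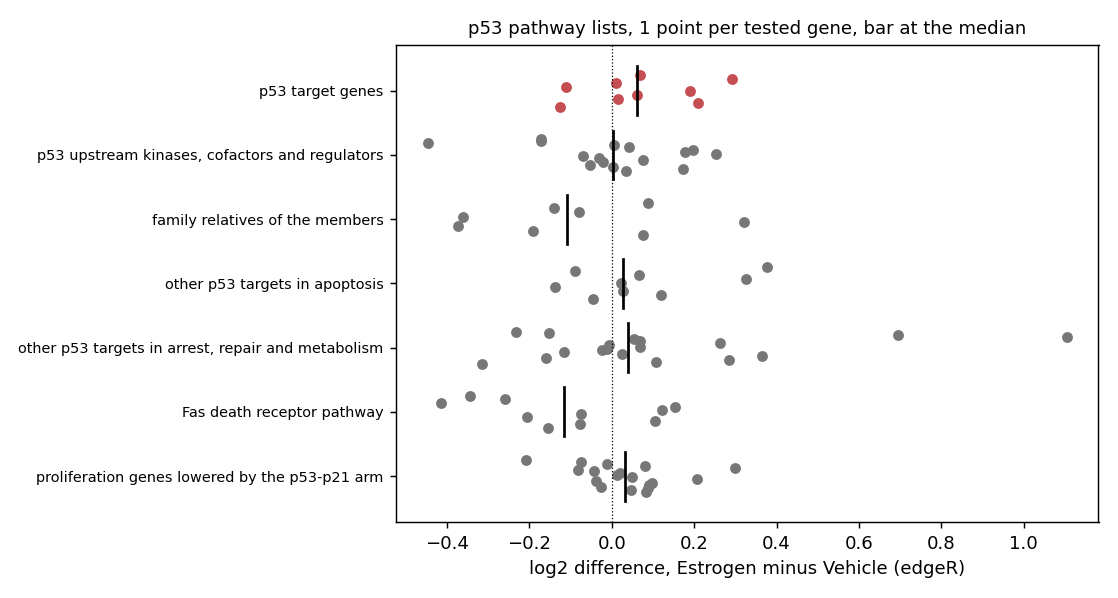
Log2 difference of Estrogen minus Vehicle for every tested gene of the members and of the 6 pathway lists, with 1 point per gene and a bar at the median of each list. The medians run from −0.12 to 0.061, and the single point above 1 is Gdf15 at 1.10.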

How the data were processed

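RNA was sequenced from 8 libraries of WT bone marrow B cells, 4 treated with Vehicle and 4 with Estrogen, all under hypoxia. Total RNA was isolated with Trizol and made into libraries with the Illumina TruSeq kit, per the labels. What the authors deposited is a single table of unnormalized read counts by Ensembl gene. CASAVA, Bowtie 0.12.2 and mm10 are named in the submitters' processing notes. How reads were assigned to genes (counter, annotation, strand, multiple matches) is not stated, so reads of near-identical genes may be lost or divided.

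Symbols and coordinates came from GENCODE M21 (46488 of 46983 identifiers, 98.9%). Counts were analysed with edgeR 4.0.16 in R 4.3.3: filterByExpr (15175 genes, 99.9% of reads), TMM, robust glmQLFit and the two-sided quasi-likelihood F-test with Benjamini-Hochberg adjustment over all genes tested at 0.05. The biological coefficient of variation was 22.7%. Values are mean ± SD of TMM-scaled CPM, and fitted log2 differences carry the SE and the 95% interval. Permutation tests of group differences were exact over 70 regroupings of 4 against 4 libraries, on log2 CPM with a prior count of 2. With 1 library left out they covered all regroupings of the rest. Those of correlations covered all pairings of the 8 libraries, or 576 pairings where they were made within groups. The edgeR procedure was also run on simulated counts, drawn independently for each gene and library. They do not hold the variation in B lineage markers that these libraries share across genes, so that run does not cover it. The motif search used the RefSeq promoter windows of 27025 genes. Shared sequence was measured in 50-base windows, as the percentage of a gene's transcript windows that recur in other genes.

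The members, lists and tests were chosen with earlier results of these data known. All 10 members were named whatever their values, and from each pathway list the 3 tested genes with the smallest p, since none passed. Genes named as untested, markers and sex-linked genes are outside that rule. As alternatives, size factors of DESeq2 1.42.0 or library totals replaced TMM, and the others were the filter on low counts left out or raised to 1 CPM in 4 libraries, the Wald test of DESeq2, voom of limma 3.58.1 with and without sample weights, a replicate block, a threshold of 0.1, and leaving out each library. The B lineage covariate, the relations with the B lineage sum (over all libraries and within groups) and the other numbers of motif mismatches were added after seeing the data. One further gene of the B lineage list is not reported here and was left out of the sums. Figures were drawn with matplotlib 3.10.9 in Python 3.11.15.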

Additional observations from a re-analysis of the deposited data

Results flagged for a closer look

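In Zmat3, Estrogen 3 lay apart from the other Estrogen libraries, at 7.49 scaled CPM against 8.83 to 8.98 CPM, a gap of 0.904 of the whole range of the group. This was 1 of 20 groups checked (10 members in 2 groups of 4), and chance gives about 1 in 20.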

How the results depend on the processing

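No member was called under any of the alternatives, in which the lowest adjusted p of a member was 0.347 (Cdkn1a, replicate block), and the median log2 difference of the 9 tested members ran from −0.0051 (B lineage covariate) to 0.11. Over all genes, 1 gene was called higher with the replicate block (Tgm2), 1 lower with the DESeq2 Wald test and 1 lower with voom and sample weights (Cd8b1 in both), against 0 in each direction. Genes at an unadjusted p under 0.05 numbered 2175 with the replicate block, 2297 with sample weights, 2156 without Vehicle 4 and 1743 without Estrogen 1, and 227, 258 and 264 without Estrogen 2, Vehicle 1 and Estrogen 4, against 535. Whether the replicate numbers pair the samples is not stated. Deviations of same-numbered libraries from the group means correlated at 0.67, −0.13, 0.080 and 0.55 in replicates 1 to 4. Vehicle 2 correlated best with Estrogen 3 and Vehicle 3 with Estrogen 2, so these values do not decide whether the numbers pair the samples. Some log2 differences changed sign. In Zmat3 it was −0.099 with sample weights and −0.074 with the B lineage covariate, which also gave −0.0051 in Mdm2 and −0.033 in Ccng1. With 1 library left out in turn, edgeR gave −0.0090 to 0.13 in Ccng1, −0.029 to 0.34 in Phlda3, −0.087 to 0.11 in Zmat3 and −0.0016 to 0.14 in Gadd45a, and without a change of sign −0.17 to −0.083 in Trp53, 0.13 to 0.30 in Cdkn1a, 0.0036 to 0.067 in Mdm2, −0.14 to −0.051 in Trp53inp1 and 0.15 to 0.43 in Fas. The difference in mean log2 CPM of the permutation test ran from −0.0079 to 0.049 in Mdm2, −0.0097 to 0.12 in Ccng1, −0.046 to 0.42 in Phlda3, −0.097 to 0.12 in Zmat3, −0.50 to 0.42 in Eda2r and −0.0032 to 0.12 in Gadd45a. The cause of these changes was not tested. In all, 229 of the recomputed values kept their direction and side of the threshold, 22 reversed and 1 passed a threshold (Trp53inp1 without Vehicle 3). With up to 1 mismatch the p53 site pair was found in 35 genes (0.13%) and 2 members, and with up to 3 in 884 genes (3.27%) and 3 members, numbers chosen after seeing the data. A wider window around the start sites was not run, as the sequences used held 300 bases a start. Depth limited Eda2r and Phlda3.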
